A study of Homo sapiens with 13 samples.

Results

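The genes described here are the heat shock proteins and DNAJ cochaperones, taken by symbol: HSPA, HSPB, HSPD1, HSPE1, HSPH1, the HSP90 genes HSP90AA1, HSP90AB1 and HSP90B1, and the DNAJA, DNAJB and DNAJC families. The rule matched 71 genes of 67882 gene identifiers in the count table, and used no measured value. Of these 71, 55 passed the filter on low counts and were tested, against 15734 genes tested in all. By the compartment in which the protein is known to act, 46 of the 71 belong to the cytosol or nucleus (32 tested), 8 to the lumen of the endoplasmic reticulum (ER; 8 tested), 5 to the ER membrane (5 tested) and 8 to mitochondria (7 tested). The other 4 (DNAJC4, DNAJC22, DNAJC25 and DNAJC28) were left unplaced, with 3 of them tested.

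The cells were PC3shTIMP1, a line made from PC3, an androgen-independent human prostate cancer cell line, with a short hairpin RNA directed at TIMP1, a tissue inhibitor of metalloproteinases. All 13 libraries carry the hairpin, so no library shows the cells without it. The groups were Vehicle (3 libraries), Docetaxel at 1 nM (4), Adapalene at 5 µM (3) and Combo, the 2 drugs together (3), each for 48 h, and the doses within Combo are not restated in the labels. Docetaxel stabilises microtubules and blocks mitosis, and adapalene is a synthetic agonist of retinoic acid receptors. The replicates are called technical in the design text, and the labels do not say whether they came from separate cultures, so p-values measure only the spread between these libraries of 1 line, which may be technical.

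Chaperones bind unfolded stretches of other proteins and release them through cycles of ATP binding and hydrolysis. HSP70 proteins take their clients from J-domain cochaperones, the DNAJ family, which trigger ATP hydrolysis, and nucleotide exchange factors such as the HSP110 proteins reset the cycle. HSP90 receives clients, among them steroid receptors and kinases, from HSP70, while mitochondria and the ER lumen hold their own sets. Genes of the cytosolic set are classically induced by heat shock factor 1, those of the ER set by the unfolded protein response.

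Library totals ran from 11948720 to 16235041 counts, with 21836 to 25058 genes detected. Transcripts encoded by the mitochondrial genome took 0.722 to 2.82% of counts and passed 2% in 4 libraries, replicate 4 of Docetaxel and replicate 3 of each other group. Epithelial keratin transcripts KRT8 and KRT18 reached at least 688 and 454 CPM (counts scaled to library size by TMM) in every library, while CD3E of T cells had at most 1 count and PTPRC of leukocytes at most 2.76 CPM. TIMP1 lay between 55.0 and 111 CPM, which without a hairpin-free library says nothing of the size of the knockdown.

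The DNA elements that the textbook regulators of these genes bind were looked for in RefSeq promoter windows on GRCh38.p14, from 250 bases before to 50 bases after the start of transcription. The heat shock element, searched as 3 alternating triplets (GAA, TTC, GAA or TTC, GAA, TTC) with 2 bases of any kind between neighbours and 1 on each side, was present on either strand in 7 of 63 members with a window (11.1%), against 0.597% of 27305 genes. Those 7 were DNAJA1, DNAJB6, HSP90AA1, HSP90AB1, HSPA6, HSPA8 and HSPD1. The ER stress element, searched as CCAAT, 9 bases of any kind and CCACG, was present on either strand in HSPA5 and HSP90B1 alone (3.17% of the 63 members, against 0.0916% of all genes). Both belong to the ER lumen set, of which 7 had a window. The 2 motifs did not overlap in any member. Sites are shown for HSP90AA1, HSP90AB1 and HSPA8 of the cytosol, HSPD1 of mitochondria, and HSP90B1 and HSPA5 of the ER lumen. The matches in DNAJA1, DNAJB6 and HSPA6 are not shown. Which sites are shown says nothing of a link between an element and a change in level. Capitals mark the matched bases, 5′ to 3′ on the strand of the gene.
HSP90AA1, chr14:102087112-102087140, minus strand, heat shock element: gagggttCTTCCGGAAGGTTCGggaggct
HSP90AB1, chr6:44247770-44247798, plus strand, heat shock element: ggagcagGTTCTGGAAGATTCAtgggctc
HSP90AB1, chr6:44247823-44247851, plus strand, heat shock element: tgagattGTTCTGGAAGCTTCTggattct
HSPA8, chr11:123062171-123062199, minus strand, heat shock element: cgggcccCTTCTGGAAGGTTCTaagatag
HSPA8, chr11:123062346-123062374, minus strand, heat shock element: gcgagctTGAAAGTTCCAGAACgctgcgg
HSPD1, chr2:197500062-197500090, minus strand, heat shock element (another match overlaps it): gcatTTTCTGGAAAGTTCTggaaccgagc
HSP90B1, chr12:103930211-103930239, plus strand, ER stress element: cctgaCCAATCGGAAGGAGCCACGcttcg
HSP90B1, chr12:103930316-103930344, plus strand, ER stress element read on the other strand: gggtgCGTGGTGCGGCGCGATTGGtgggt
HSPA5, the 250 bases before the start, chr9:125241344-125241593, minus strand, ER stress element: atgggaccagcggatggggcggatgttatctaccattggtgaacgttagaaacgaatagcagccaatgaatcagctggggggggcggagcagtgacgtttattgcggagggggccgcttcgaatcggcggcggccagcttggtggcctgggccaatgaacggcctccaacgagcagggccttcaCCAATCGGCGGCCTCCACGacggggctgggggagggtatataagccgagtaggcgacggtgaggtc

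A match is a description of these letters, not a measured binding site, and a window without a match says only that these letters are not in it.

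In Vehicle cells the cytosolic HSP90 and HSP70 transcripts were the most abundant of the set per length of transcript. On the scale of CPM per kilobase of exon, HSP90AB1 had a mean level of 1245, HSP90AA1 of 694 and HSPA8, the constitutive HSP70, of 505. HSPA5 (BiP, the HSP70 of the ER lumen) followed with 302, HSPD1 (HSP60, the mitochondrial chaperonin) with 299 and HSP90B1 (GRP94, the HSP90 of the ER) with 191. These 6 genes took 67.2 to 74.6% of all counts of the set in the 13 libraries. The most abundant J-domain transcript was DNAJA1, at 114 CPM per kilobase.

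The whole set took 1.60 to 1.89% of all counts in the Vehicle libraries, 1.49 to 1.70% in Docetaxel, 1.33 to 1.46% in Adapalene and 1.32 to 1.52% in Combo. The cytosolic and nuclear members made up most of that range, at 1.13 to 1.38% in Vehicle, 1.04 to 1.23% in Docetaxel, 0.904 to 0.994% in Adapalene and 0.880 to 1.05% in Combo. Every Adapalene and Combo library lay below every Vehicle library in that share. The share of the ER lumen members was 0.233 to 0.253% in Vehicle and 0.191 to 0.233%, 0.233 to 0.243% and 0.219 to 0.239% in Docetaxel, Adapalene and Combo, so Adapalene and Combo overlapped Vehicle, and the Docetaxel range ended where the Vehicle range began. In bulk RNA a lower share cannot be told apart from fewer cells that carry the transcript. Within Vehicle, Docetaxel and Combo the library with the lowest share of cytosolic members was the one with over 2% mitochondrial counts (Vehicle replicate 3, Docetaxel replicate 4 and Combo replicate 3), whereas in Adapalene that library (replicate 3) had the highest share. The part of this in the results was not tested beyond leaving these libraries out. The counts of members called are therefore also given without the 4 libraries over 2%.

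**Figure D1:**
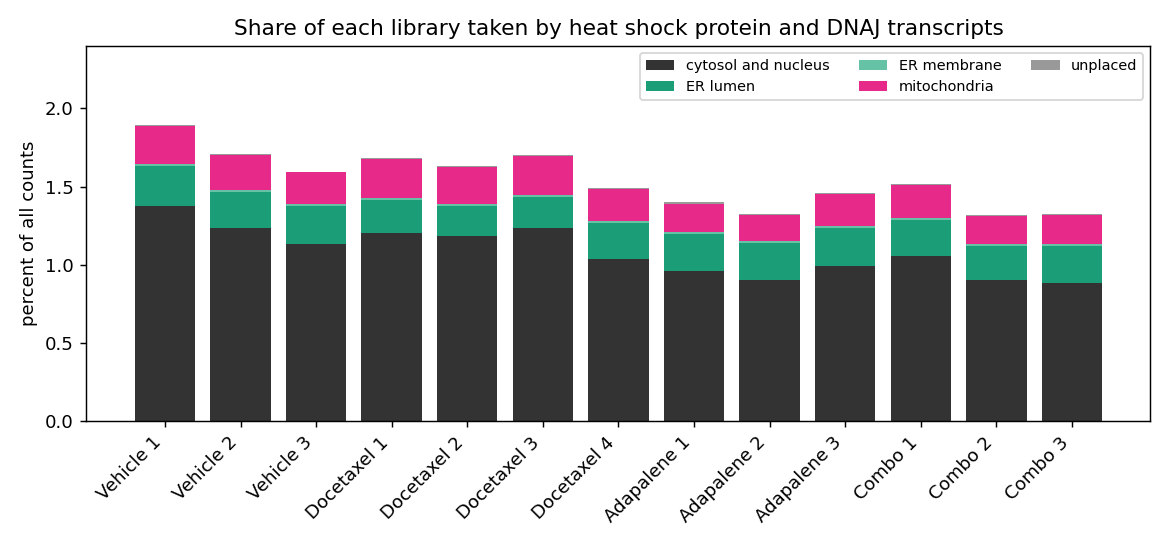
Each bar is 1 library, and its height is the percent of all counts assigned to the 71 genes, stacked by the compartment of the protein. The cytosolic part stands between 0.904 and 0.994% in Adapalene and between 1.13 and 1.38% in Vehicle, while the ER lumen part stays between 0.191 and 0.253% in all libraries.

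Against Vehicle, Docetaxel changed few members: HSP90AA1, DNAJC13, HSP90B1 and DNAJC22 fell, and DNAJB2, DNAJB4 and DNAJC25 rose. These 7 of 55 compare with 25.9% called among all genes tested by edgeR at an adjusted p under 0.05 (13.2% higher, 12.8% lower). The 55 had a median log2 fold change of −0.03, against −0.02 over all genes. By compartment, 2 of 32 cytosolic members rose and 2 fell, 1 of 8 ER lumen members fell, and none of 5 ER membrane or 7 mitochondrial members was called. The numbers are sensitive to single libraries: 1 member rose without Vehicle replicate 2 and 5 without Adapalene replicate 3, a library of neither group that enters through the shared fit and the filter on low counts. Without the 4 libraries over 2% mitochondrial counts, 4 rose and 7 fell.

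Adapalene lowered HSP90AA1, HSP90AB1, HSPA8 and the mitochondrial chaperonin pair, HSPD1 and HSPE1, among others, and raised HSPA2 and a few J-domain cochaperones. Here 10 of 55 members fell, against 9.16% of all genes, and 6 rose, against 9.25% (18.4% called in either direction). The median over members was −0.08, against 0.02 over all genes. In the cytosol 8 of 32 fell (HSP90AA1, HSP90AB1, HSPA8, HSPA14, HSPA4, HSPH1, DNAJC7 and DNAJC13) and 3 rose (DNAJB2, DNAJB4 and HSPA2). In mitochondria 2 of 7 fell (HSPD1 and HSPE1), in the ER lumen 1 of 8 rose (DNAJB9) and none fell, and the unplaced DNAJC4 and DNAJC22 rose. The count of fallers was 4 without Vehicle replicate 1 and 5 without Adapalene replicate 1, and that of risers was 2 without Adapalene replicate 1, while without the 4 libraries over 2% mitochondrial counts 15 fell and 7 rose.

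Combo lowered 15 of 55 members, against 12.3% of all genes, and raised 6, against 13.5% (25.8% called in either direction). The median over members was −0.10, against 0.02 over all genes. In the cytosol 10 of 32 fell, in mitochondria 4 of 7 and in the ER membrane 1 of 5 (DNAJB12), while no ER lumen member fell. HSPA5 did with the replicate number as a block, at an edgeR adjusted p of 0.0417, and in other fits given below. The 3 cytosolic risers were again DNAJB2, DNAJB4 and HSPA2, beside DNAJB9 of the ER lumen and the unplaced DNAJC4 and DNAJC25. The count of fallers was 6 without Vehicle replicate 1 and 7 without Combo replicate 3, and 14 without the 4 libraries over 2% mitochondrial counts. All 3 comparisons share the same 3 Vehicle libraries, so their values stand side by side below and are no independent support for each other.

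Of the 7 genes whose window holds a heat shock element, HSP90AA1, HSP90AB1, HSPA8 and HSPD1 fell with Adapalene and with Combo (9.16 and 12.3% of all genes tested fell in these comparisons), and HSP90AA1 with Docetaxel as well. DNAJA1, DNAJB6 and HSPA6 were not called against Vehicle in the filtered, unblocked edgeR fit of all libraries. DNAJB6 was called higher with Docetaxel with no filter (edgeR adjusted p = 0.00995) and without Adapalene replicate 3 (0.0444). Of the 2 with an ER stress element, HSP90B1 fell with Docetaxel, and HSPA5 was not called against Vehicle in the filtered, unblocked edgeR fit of all libraries but was in others, given with its values below.

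**Figure D2:**
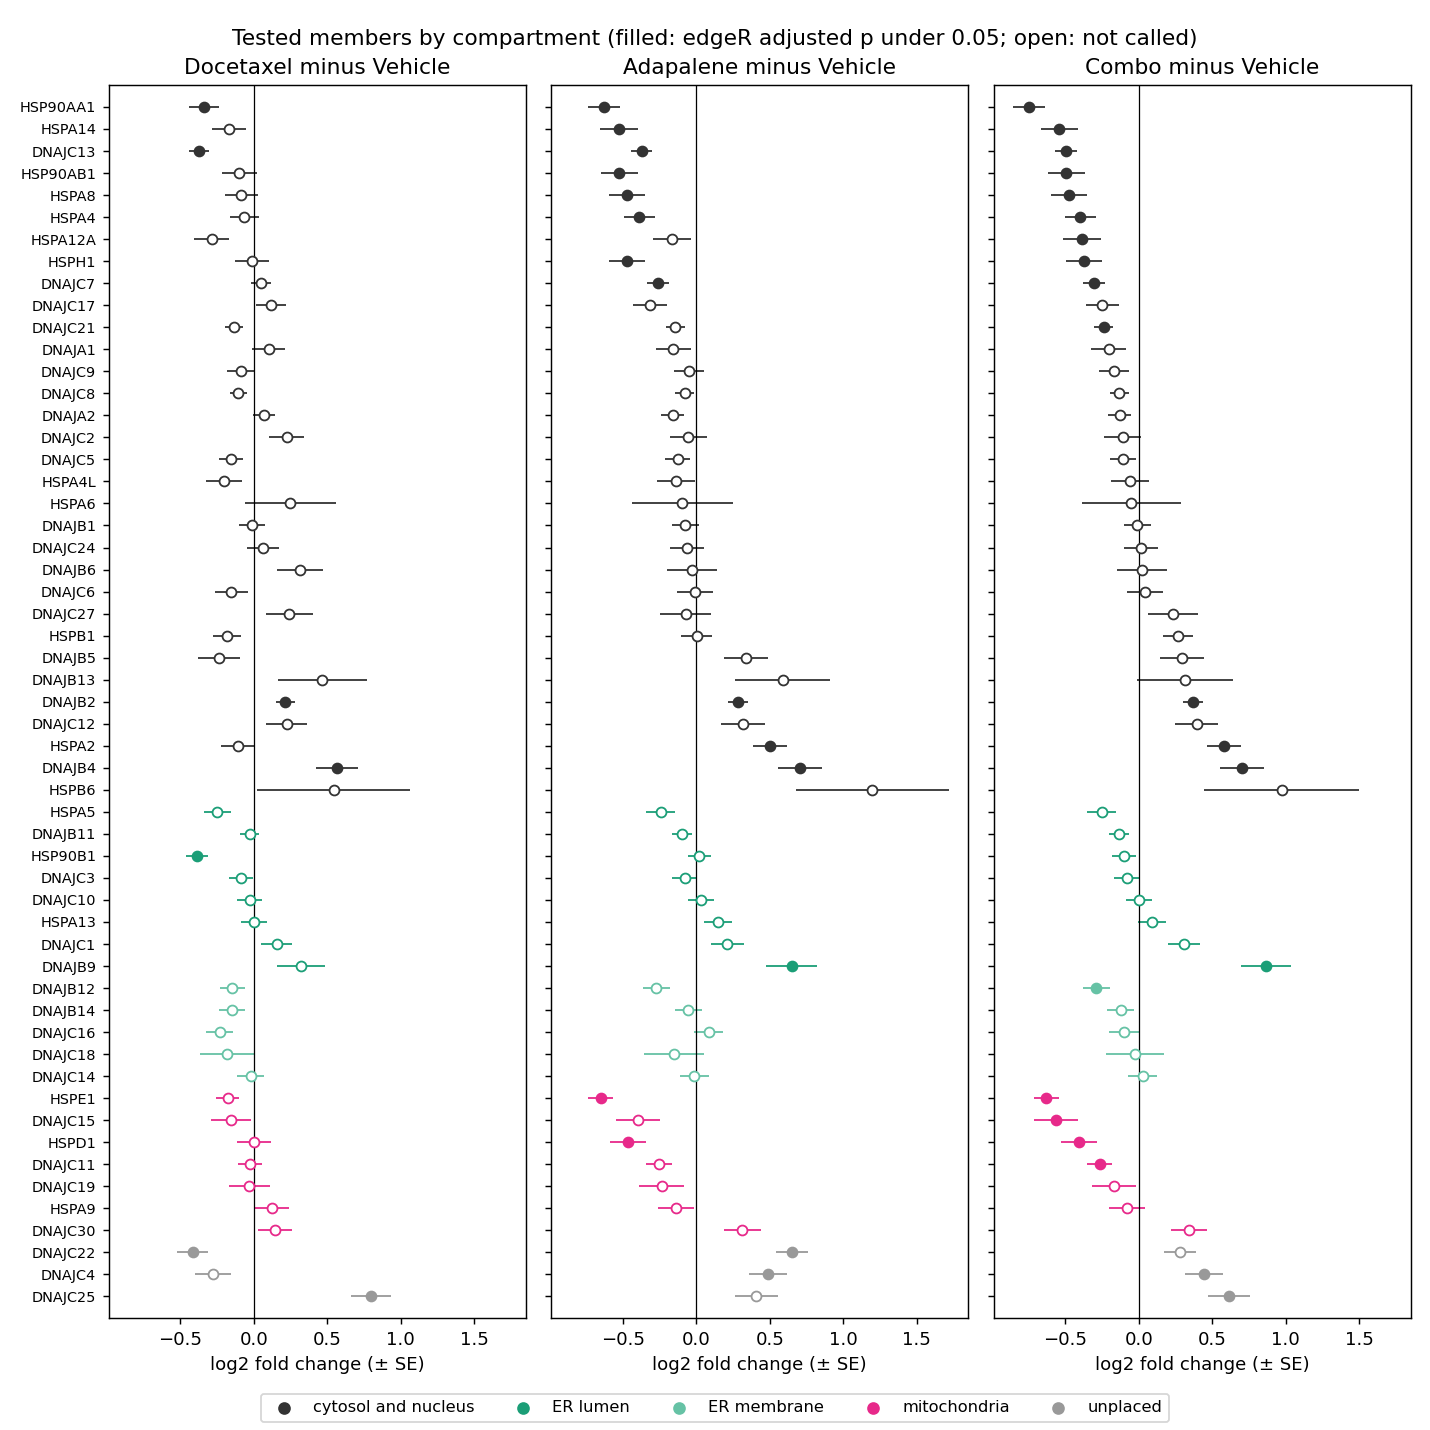
Each row is 1 tested gene, grouped by compartment and ordered by its Combo value, and each point is its log2 fold change against Vehicle with the standard error; filled points passed edgeR's test. HSP90AA1, HSP90AB1, HSPA8 and HSPE1 lie left of 0 with Adapalene and Combo, and most ER lumen genes lie near 0, with DNAJB9 to the right.

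Among the members with the widest separation was HSP90AA1, the inducible cytosolic HSP90 (chr14). Its level was 4107, 3622 and 3204 CPM in the 3 Vehicle libraries, 2974, 2982, 3046 and 2506 in Docetaxel, 2385, 2302 and 2397 in Adapalene and 2459, 2094 and 1969.8 in Combo. Every treated library lay below every Vehicle library, and every Adapalene and Combo library below every Docetaxel library. With Combo it fell 1.68-fold (log2 change −0.75, SE 0.11, adjusted p = 0.000301 by edgeR). With Adapalene it fell 1.54-fold (log2 change −0.63, SE 0.11, adjusted p = 0.00164 by edgeR), and neither call was lost under any alternative run. With Docetaxel the fall was smaller (log2 change −0.34, SE 0.10, adjusted p = 0.0234 by edgeR), and it was lost without Vehicle replicate 1, Vehicle replicate 2 or Docetaxel replicate 4 in turn (highest adjusted p by edgeR 0.122).

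HSP90AB1, the constitutive cytosolic HSP90 (chr6), was at 4204, 3711 and 3218 CPM in Vehicle, 3606, 3526, 3842 and 2901 in Docetaxel, 2587, 2407 and 2755 in Adapalene and 3054, 2461 and 2405 in Combo. Docetaxel overlapped Vehicle, and all Adapalene and Combo libraries lay below all Vehicle libraries. It fell with Adapalene (log2 change −0.52, SE 0.13, adjusted p = 0.0109 by edgeR) and with Combo (log2 change −0.49, SE 0.13, adjusted p = 0.0104 by edgeR), and Docetaxel passed no test (log2 change −0.10, SE 0.12, adjusted p = 0.577 by edgeR). Without Vehicle replicate 1 both calls were lost, at edgeR adjusted p of 0.06 and 0.057. The sum over pseudogene copies reached at most 0.0999% of the counts of HSP90AB1 and 0.0693% of those of HSP90AA1.

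HSPA8, the constitutive HSP70 of the cytosol (chr11), was at 2809, 2382 and 2152 CPM in Vehicle, 2381, 2338, 2502 and 2018 in Docetaxel, 1767, 1649 and 1889 in Adapalene and 2069, 1666 and 1545 in Combo. Here too Docetaxel overlapped Vehicle, and the Adapalene and Combo libraries all lay below Vehicle. It fell with Adapalene (log2 change −0.47, SE 0.12, adjusted p = 0.0167 by edgeR) and with Combo (log2 change −0.48, SE 0.12, adjusted p = 0.0108 by edgeR), and Docetaxel gave −0.08 (SE 0.11, adjusted p = 0.627 by edgeR). The call was lost without Vehicle replicate 1 in both comparisons, without Adapalene replicate 1 or 2 in the first (highest edgeR adjusted p 0.088), and without Combo replicate 3 in the second (highest 0.062).

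**Figure D3:**
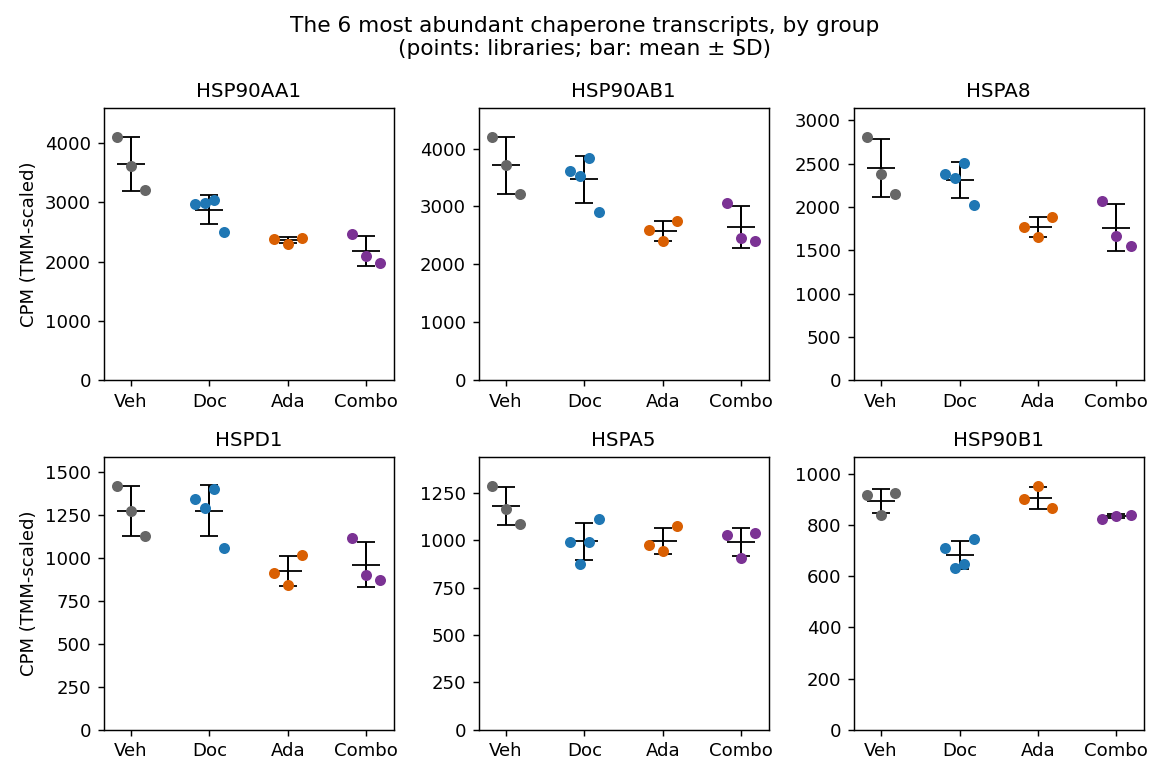
Each panel shows 1 of the 6 most abundant genes, with TMM-scaled CPM on a linear axis from 0, 1 point a library, and the mean and SD of each group. HSP90AA1, HSP90AB1, HSPA8 and HSPD1 lie lower in Adapalene and Combo than in Vehicle, and HSP90B1 is lowest in Docetaxel, at 633 to 747 CPM.

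The inducible HSP70 genes gave little to compare. HSPA1A and HSPA1B, near-identical neighbours on chromosome 6, and HSPA1L beside them were listed at 0 in all 13 libraries. HSF1, ATF6B and HYOU1, which most cells express, were listed at 0 or close to it as well, so a 0 here does not show that the transcript was absent. HSPA6, the strictly inducible HSP70, was at 1.01, 1.85 and 2.60 CPM in Vehicle and between 1.19 and 2.75 CPM in treated libraries, and passed no test against Vehicle (smallest edgeR adjusted p 0.593). DNAJB1, the heat-inducible partner of HSP70, was at 317, 305 and 259 CPM in Vehicle, 304, 289.6, 317 and 256 in Docetaxel, 288, 262 and 287 in Adapalene and 317, 277 and 281 in Combo, all overlapping. Its log2 fold changes against Vehicle were −0.01 (SE 0.09), −0.07 (SE 0.09) and −0.01 (SE 0.09), none called by edgeR.

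HSPH1 and HSPA4, nucleotide exchange factors of the HSP110 type that reset HSP70, fell with Adapalene and with Combo. HSPH1, also called HSP110 (chr13), was at 304, 253 and 224 CPM in Vehicle, 273, 261, 273 and 225 in Docetaxel, 191, 163 and 208 in Adapalene and 229.8, 183 and 191 in Combo. Every Adapalene library lay below Vehicle, and 1 Combo library overlapped it. HSPH1 fell with Adapalene (log2 change −0.47, SE 0.12, adjusted p = 0.0163 by edgeR) and with Combo (log2 change −0.37, SE 0.12, adjusted p = 0.0369 by edgeR). HSPA4 was at 411 ± 46.9 (SD, n = 3) CPM in Vehicle and fell to 314 ± 21.1 (SD, n = 3) with Adapalene (log2 change −0.39, SE 0.11, adjusted p = 0.0205 by edgeR) and to 312 ± 38.4 (SD, n = 3) with Combo (log2 change −0.40, SE 0.11, adjusted p = 0.0131 by edgeR). Its relative HSPA4L gave −0.20 (SE 0.12), −0.14 (SE 0.13) and −0.06 (SE 0.13) with Docetaxel, Adapalene and Combo, none called. The HSPH1 call with Adapalene was lost without Vehicle replicate 1 or Adapalene replicate 2, and with Combo without Vehicle 1, Vehicle 2, Combo 2 or Combo 3 (highest edgeR adjusted p 0.088 and 0.182). That of HSPA4 was lost without Vehicle 1 or 2 or Adapalene 1 or 2 in the first comparison (highest 0.099) and without Vehicle 1 or Combo 3 in the second (highest 0.068).

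HSPA14, an HSP70 that works at the ribosome, was at 21.4, 20.6 and 21.7 CPM in Vehicle, 18.3, 17.4, 19.3 and 20.4 in Docetaxel, 12.2, 13.9 and 18.3 in Adapalene and 13.6, 15.2 and 14.99 in Combo. HSPA14 shares 460 exon bases with another gene entry of the same name on the same strand, so its count is uncertain. All treated libraries lay below all Vehicle libraries, most closely in Docetaxel. It fell with Adapalene (log2 change −0.53, SE 0.13, adjusted p = 0.0107 by edgeR), a call lost without Adapalene replicate 1 (0.059 by edgeR), and with Combo (log2 change −0.54, SE 0.13, adjusted p = 0.00584 by edgeR). HSPA2, an HSP70 best known from the testis, went the other way: 17.7, 20.6 and 17.3 CPM in Vehicle, 16.2, 17.6, 19.8 and 15.3 in Docetaxel, 29.4, 25.7 and 23.6 in Adapalene and 28.2, 29.2 and 25.4 in Combo. All Adapalene and Combo libraries lay above all of Vehicle and Docetaxel. It rose with Adapalene (log2 change 0.50, SE 0.12, adjusted p = 0.00871 by edgeR; lost without Adapalene replicate 1, 0.055 by edgeR) and with Combo (log2 change 0.58, SE 0.12, adjusted p = 0.00241 by edgeR). HSPA12A, a distant HSP70 relative, fell with Combo (log2 change −0.39, SE 0.13, adjusted p = 0.0399 by edgeR), a call lost without Vehicle 1 or 3, Docetaxel 1, Adapalene 1 or any Combo library (highest edgeR adjusted p 0.133), without the 4 libraries over 2% mitochondrial counts and with no filter on low counts.

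Among the cytosolic J-domain cochaperones DNAJC13, which acts on endosomes, fell with each treatment. It was at 144, 139 and 133 CPM in Vehicle, 112, 104, 103 and 109 in Docetaxel, 110.1, 107 and 104 in Adapalene and 107, 98.3 and 89.1 in Combo, with every treated library below every Vehicle library. The log2 fold changes were −0.37 with Docetaxel (SE 0.07, adjusted p = 0.00132 by edgeR), −0.37 with Adapalene (SE 0.07, adjusted p = 0.00335 by edgeR) and −0.49 with Combo (SE 0.07, adjusted p = 0.000301 by edgeR), and no alternative lost a call. DNAJC7, which binds HSP70 and HSP90 through its TPR repeats, was at 98.9 ± 3.90 (SD, n = 3) CPM in Vehicle and 102 ± 5.59 (SD, n = 4) in Docetaxel. It fell to 82.6 ± 2.92 (SD, n = 3) with Adapalene (log2 change −0.26, SE 0.07, adjusted p = 0.0257 by edgeR; lost without Vehicle 1, Vehicle 2 or Adapalene 1, highest 0.103 by edgeR) and to 80.2 ± 6.48 (SD, n = 3) with Combo (log2 change −0.30, SE 0.07, adjusted p = 0.00838 by edgeR). DNAJC21, of ribosome maturation, fell with Combo (log2 change −0.24, SE 0.07, adjusted p = 0.0154 by edgeR), a call lost without Vehicle replicate 1 (0.0725 by edgeR) and with no filter.

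DNAJB4 and DNAJB2 rose in each treated group. DNAJB4, a class B partner of HSP70 (chr1), was at 12.2, 10.4 and 11.96 CPM in Vehicle, 17.8, 17.5, 15.7 and 17.3 in Docetaxel, 18.7, 14.7 and 23.02 in Adapalene and 20.5, 15.7 and 19.99 in Combo. No treated library reached down to Vehicle, and the treated groups overlapped each other. The changes were 0.57 with Docetaxel (SE 0.14, adjusted p = 0.00932 by edgeR), 0.71 with Adapalene (SE 0.15, adjusted p = 0.00543 by edgeR) and 0.70 with Combo (SE 0.15, adjusted p = 0.00368 by edgeR), on the log2 scale. The first was lost without Vehicle replicate 2 (0.054).

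DNAJB2, which binds ubiquitinated clients, was at 95.2, 93.1 and 92.9 CPM in Vehicle, 109, 111, 114 and 102 in Docetaxel, 118, 114 and 109 in Adapalene and 115, 119 and 129 in Combo, again with no overlap with Vehicle. It rose by 0.21 with Docetaxel (SE 0.06, adjusted p = 0.0239 by edgeR), 0.28 with Adapalene (SE 0.07, adjusted p = 0.0112 by edgeR) and 0.37 with Combo (SE 0.07, adjusted p = 0.00141 by edgeR). The Docetaxel call was lost without any 1 of the Vehicle libraries or of Docetaxel 1, 2 and 3, and with no filter on low counts (highest edgeR adjusted p 0.169). The Adapalene call was lost without Adapalene replicate 1 (0.069) and with no filter.

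In the filtered, unblocked edgeR fit of all libraries the other J-domain members of the cytosol showed no call against Vehicle. They include the class A proteins DNAJA1 (−0.15, SE 0.12, with Adapalene and −0.20, SE 0.12, with Combo) and DNAJA2 (−0.16, SE 0.08, and −0.13, SE 0.08) and the aggregation blocker DNAJB6, which ranged from 104 to 197 CPM over all libraries. DNAJC2 of the ribosome, DNAJC5, DNAJC6 (auxilin), DNAJC8, DNAJC9, DNAJC12, DNAJC17, DNAJC24, DNAJC27, DNAJB5 and DNAJB13 complete this group. DNAJA4 had at most 7 counts in a library, and DNAJB3, DNAJB7 and DNAJB8 were also too low to test, as were HSPA7, HSPA12B and DNAJC28 of the other families.

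Of the small heat shock proteins, which hold unfolded clients without ATP, HSPB1 (HSP27) and HSPB6 were tested. HSPB1 (chr7) was at 159, 182 and 138 CPM in Vehicle, 132, 142, 153 and 136 in Docetaxel, 169.8, 171 and 139.5 in Adapalene and 180.2, 208 and 189 in Combo. Its 3 differences from Vehicle were −0.18 (SE 0.10), 0.00 (SE 0.10) and 0.27 (SE 0.10; edgeR adjusted p = 0.07 with Combo), and none was called in the filtered, unblocked edgeR fit of all libraries. With Combo HSPB1 was called higher without Vehicle replicate 2 (edgeR adjusted p = 0.0296) and without Adapalene replicate 3 (0.0427). With Docetaxel it was called lower without the 4 libraries over 2% mitochondrial counts (edgeR adjusted p = 0.0363). HSPB6 lay at 0.186 to 1.51 CPM, with a difference of 1.20 with Adapalene that did not pass (SE 0.52, adjusted p = 0.121 by edgeR). HSPB7, best known from heart muscle, was below the filter in the fit of all libraries: it had 0 counts in each Vehicle library and 1, 11, 10 and 6 in the Docetaxel libraries, 3, 0 and 0 in Adapalene and 0, 0 and 3 in Combo. Fitted without a filter it was called higher with Docetaxel (edgeR adjusted p = 0.000145), as it was by DESeq2 (adjusted p = 0.0111). Filtered fits without Vehicle 1, Vehicle 3 or any 1 Adapalene or Combo library called it too (edgeR adjusted p 0.014 to 0.0493). So did the fit without the 4 libraries over 2% mitochondrial counts (0.035). All these calls rest on these few counts. HSPB2, HSPB3, HSPB8 and HSPB9 had at most 8 counts in any library.

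**Figure D4:**
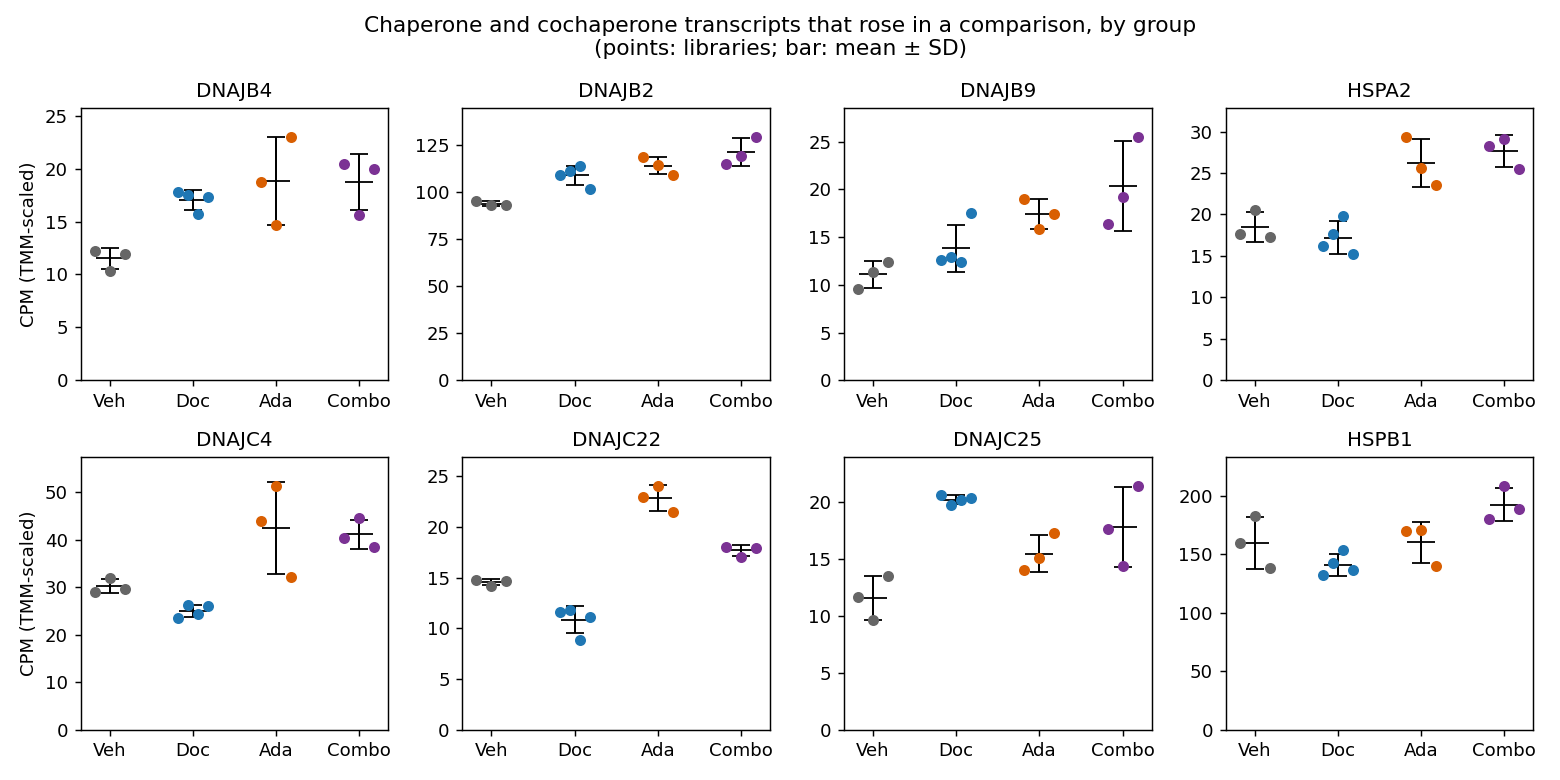
Each panel shows 1 gene called higher in at least 1 comparison, with TMM-scaled CPM from 0, 1 point a library, and the mean and SD of each group. DNAJB4 and DNAJB2 are higher than Vehicle in all 3 treated groups, HSPA2, DNAJC4 and DNAJC22 are higher in Adapalene than in Docetaxel, and HSPB1 is higher in Combo than in Docetaxel.

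In the ER lumen 1 of 8 members was called with each treatment: HSP90B1, lower, with Docetaxel, and DNAJB9, higher, with Adapalene and with Combo. HSP90B1 (GRP94, chr12), which folds secreted and membrane proteins, was at 919.7, 840.0 and 924 CPM in Vehicle, 709.6, 633, 646 and 747 in Docetaxel, 904, 953 and 867 in Adapalene and 825, 838 and 841 in Combo. All 4 Docetaxel libraries lay below all other libraries. It fell with Docetaxel (log2 change −0.39, SE 0.07, adjusted p = 0.00177 by edgeR), a call that every alternative kept, and did not pass with Adapalene (log2 change 0.02, SE 0.08, adjusted p = 0.877 by edgeR) or Combo (log2 change −0.10, SE 0.08, adjusted p = 0.378 by edgeR). DNAJB9 (ERdj4, chr7), a partner of BiP, was at 9.56, 11.4 and 12.4 CPM in Vehicle, 12.6, 12.9, 12.4 and 17.5 in Docetaxel, 18.96, 15.9 and 17.4 in Adapalene and 16.4, 19.2 and 25.5 in Combo. Adapalene and Combo lay wholly above Vehicle, and Docetaxel overlapped it. It rose 1.82-fold with Combo (log2 change 0.87, SE 0.17, adjusted p = 0.00222 by edgeR) and 1.57-fold with Adapalene (log2 change 0.65, SE 0.17, adjusted p = 0.0184 by edgeR), the latter lost without Vehicle 1, Vehicle 2 or Adapalene 1 (highest edgeR adjusted p 0.084).

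HSPA5 (BiP), the master HSP70 of the ER, was at 1286, 1168 and 1086 CPM in Vehicle, 993, 877, 994 and 1113 in Docetaxel, 975, 945 and 1076 in Adapalene and 1028, 907 and 1038 in Combo. Adapalene and Combo lay below Vehicle in every library, and 1 Docetaxel library overlapped it. The differences did not pass: −0.25 with Docetaxel (SE 0.09, adjusted p = 0.0585 by edgeR), −0.24 with Adapalene (SE 0.10, adjusted p = 0.0998 by edgeR) and −0.25 with Combo (SE 0.10, adjusted p = 0.0704 by edgeR). This depended on the tool, the filter and the libraries: DESeq2 called all 3 lower (adjusted p of 0.031, 0.045 and 0.0293), as did edgeR with no filter (0.0166, 0.0419 and 0.0301). With all groups blocked on replicate number, the Docetaxel difference (−0.31, edgeR adjusted p = 0.0198) and the Combo difference (−0.25, edgeR adjusted p = 0.0417) passed, and the Adapalene difference did not. The labels do not establish that libraries of equal number were paired. Without the 4 libraries over 2% mitochondrial counts all 3 differences passed, at edgeR adjusted p of 0.0061, 0.0145 and 0.0184.

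In the filtered, unblocked edgeR fit of all libraries, no remaining ER member except DNAJB12 was called against Vehicle. DNAJB11 (ERdj3) lay between 47.3 and 56.0 CPM in all libraries, DNAJC3 (p58IPK) between 52.8 and 67.7 and DNAJC10 (ERdj5, a disulfide reductase) between 178 and 224. HSPA13 and DNAJC1 (ERdj1) gave 0.09 (SE 0.10) and 0.31 (SE 0.11) with Combo, and neither was called. With the filter of 1 CPM in 3 libraries DNAJC1 passed with Combo (edgeR adjusted p = 0.04999). In the ER membrane DNAJB12, which faces the cytosol and feeds membrane proteins to degradation, was at 35.7 ± 2.09 (SD, n = 3) CPM in Vehicle and fell to 29.2 ± 2.52 (SD, n = 3) with Combo (log2 change −0.29, SE 0.09, adjusted p = 0.029 by edgeR). That call was lost without Vehicle 1, Vehicle 2 or Combo 3 (highest edgeR adjusted p 0.126) and with no filter. With Adapalene the DNAJB12 difference was nearly the same (log2 change −0.27, SE 0.09) and just missed the threshold (adjusted p = 0.0502 by edgeR). It passed by DESeq2 (adjusted p = 0.0479) and in some other alternatives. DNAJB14, DNAJC14, DNAJC16 and DNAJC18 were not called, with log2 differences from Vehicle between −0.23 and 0.08.

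In mitochondria the chaperonin genes fell with Adapalene and Combo while the HSP70 was not called in the fit of all libraries. HSPE1 (HSP10), the lid of the HSP60 chamber, was at 67.7, 66.7 and 63.6 CPM in Vehicle, 62.1, 57.8, 55.6 and 57.8 in Docetaxel, 38.6, 40.3 and 47.3 in Adapalene and 41.2, 45.99 and 40.8 in Combo. The Adapalene and Combo libraries lay wholly below Docetaxel, which lay wholly below Vehicle. It fell 1.57-fold with Adapalene (log2 change −0.65, SE 0.09, adjusted p = 0.000225 by edgeR) and 1.55-fold with Combo (log2 change −0.63, SE 0.08, adjusted p = 0.000145 by edgeR), kept under every alternative, and Docetaxel did not pass (log2 change −0.18, SE 0.08, adjusted p = 0.105 by edgeR). HSPD1 (HSP60), its neighbour on chromosome 2, was at 1415, 1274 and 1124 CPM in Vehicle, 1339, 1291, 1399.8 and 1058 in Docetaxel, 912, 838 and 1014 in Adapalene and 1111, 900.3 and 867 in Combo, with Adapalene and Combo wholly below Vehicle. It fell with Adapalene (log2 change −0.46, SE 0.12, adjusted p = 0.0182 by edgeR) and Combo (log2 change −0.41, SE 0.12, adjusted p = 0.0255 by edgeR), and gave 0.00 with Docetaxel (SE 0.12). These calls were lost without Vehicle 1, Vehicle 2, Adapalene 1 or Adapalene 2 in the first comparison (highest edgeR adjusted p 0.087), and without Vehicle 1, Vehicle 2, Combo 2 or Combo 3 in the second (highest 0.112). HSPD1 and HSPE1 share 281 bases of exon on opposite strands, and no source used here gives the strand setting of the counting. HSPE1 also shares 192 exon bases with the read-through gene HSPE1-MOB4 on the same strand, so its count is uncertain.

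HSPA9 (mortalin), which pulls proteins into the matrix, was at 691 ± 76.5 (SD, n = 3) CPM in Vehicle, 752 ± 73.1 (SD, n = 4) in Docetaxel, 629 ± 88.7 (SD, n = 3) in Adapalene and 654 ± 83.2 (SD, n = 3) in Combo. It was not called against Vehicle in the fit of all libraries. Without the 4 libraries over 2% mitochondrial counts it fell with Adapalene (log2 change −0.33, edgeR adjusted p = 0.0468). DNAJC15, of the import motor, fell with Combo (log2 change −0.56, SE 0.15, adjusted p = 0.0122 by edgeR), a call lost without Combo replicate 3 and without the 4 libraries over 2% mitochondrial counts (highest edgeR adjusted p 0.099). DNAJC11, of the outer membrane and the cristae complex, also fell with Combo (log2 change −0.27, SE 0.09, adjusted p = 0.0351 by edgeR), a call lost without Vehicle 1, Vehicle 2, Combo 2 or Combo 3 (highest 0.159 by edgeR). With Adapalene DNAJC15 and DNAJC11 gave −0.39 (SE 0.15) and −0.25 (SE 0.09), not called in that fit (edgeR adjusted p 0.0758 and 0.0539). DESeq2 called DNAJC11 lower with Adapalene (adjusted p = 0.0274), and DNAJC15 passed without Adapalene replicate 3 (0.0443 by edgeR). DNAJC19 and DNAJC30 were not called in the filtered, unblocked edgeR fit of all libraries, and DNAJA3, the class A J-protein of the matrix, had at most 3 counts.

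Of the unplaced membrane J-proteins, DNAJC22 and DNAJC4 had the largest differences between Docetaxel and Adapalene of all 55 members, and DNAJC25 a smaller one. DNAJC22 was at 14.8, 14.2 and 14.7 CPM in Vehicle, 11.7, 11.8, 8.86 and 11.1 in Docetaxel, 22.98, 24.04 and 21.5 in Adapalene and 18.1, 17.05 and 17.98 in Combo, 4 groups without overlap. It fell with Docetaxel (log2 change −0.42, SE 0.10, adjusted p = 0.00928 by edgeR), rose with Adapalene (log2 change 0.65, SE 0.11, adjusted p = 0.00109 by edgeR) and did not pass with Combo (log2 change 0.28, SE 0.11, adjusted p = 0.0665 by edgeR). DNAJC25 was at 11.7, 9.66 and 13.5 CPM in Vehicle, 20.6, 19.7, 20.2 and 20.4 in Docetaxel, 14.1, 15.1 and 17.3 in Adapalene and 17.7, 14.4 and 21.4 in Combo. It rose with Docetaxel (log2 change 0.80, SE 0.14, adjusted p = 0.000804 by edgeR) and Combo (log2 change 0.61, SE 0.15, adjusted p = 0.00663 by edgeR). With Adapalene every library lay above Vehicle, but the difference did not pass (log2 change 0.41, SE 0.15, adjusted p = 0.0656 by edgeR). It passed in some alternatives, among them the replicate block (0.0363 by edgeR) and the fit without the 4 libraries over 2% mitochondrial counts (0.0382). DNAJC4 was at 30.2 ± 1.52 (SD, n = 3) CPM in Vehicle and rose to 42.5 ± 9.68 (SD, n = 3) with Adapalene (log2 change 0.49, SE 0.13, adjusted p = 0.0167 by edgeR) and 41.2 ± 3.10 (SD, n = 3) with Combo (log2 change 0.45, SE 0.13, adjusted p = 0.019 by edgeR). Its calls were lost without Vehicle 1, Adapalene 1 or Adapalene 2 in the first case and without Vehicle 1, Vehicle 3 or Combo 2 in the second (highest edgeR adjusted p 0.074 and 0.07). DNAJC4 shares 297 exon bases with NUDT22, and DNAJC25 shares 358 with the read-through gene DNAJC25-GNG10, so both counts are uncertain.

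Set directly against Docetaxel, Combo held less of HSP90AA1, HSP90AB1, HSPA8, HSPD1 and HSPE1, among others, and more of HSPA2, HSPB1 and the ER members HSP90B1 and DNAJB9. Of 55 members 12 were lower and 7 higher, against 11.2% and 12.8% of all genes (24% in either direction), and the median was −0.04, against 0.01. The fallers lay in the cytosol (8 of 32) and mitochondria (4 of 7). The risers were 3 cytosolic genes (HSPA2, HSPB1 and DNAJB5), 2 of the ER lumen and the unplaced DNAJC4 and DNAJC22. HSPB1 was higher in every Combo library than in every Docetaxel library (log2 change 0.45, SE 0.10, adjusted p = 0.00423 by edgeR), HSP90B1 likewise (log2 change 0.29, SE 0.07, adjusted p = 0.0121 by edgeR), and HSPE1 was lower (log2 change −0.45, SE 0.08, adjusted p = 0.00132 by edgeR). HSPA2 differed by 0.69 (SE 0.11, adjusted p = 0.000591 by edgeR) and DNAJC22 by 0.70 (SE 0.10, adjusted p = 0.000372 by edgeR). The number lower was 4 without Docetaxel 1, 5 without Docetaxel 2, Docetaxel 3 or Combo 3, and 3 without Combo 2. HSP90AB1, HSPA8, HSPH1 and HSPA4 each lost their call without Docetaxel 1, 2 or 3 or Combo 2 or 3 (highest edgeR adjusted p 0.104, 0.093, 0.14 and 0.104), and HSPD1 without the same except Docetaxel 2 (highest 0.085). HSP90AA1 and DNAJB5 lost theirs without Combo 2 (0.051 and 0.058), and DNAJB9 without Docetaxel 1, 2 or 3 or Combo 3 (highest 0.114). Without the 4 libraries over 2% mitochondrial counts 16 were lower and 7 higher.

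Between Combo and Adapalene no member passed the test. None of 55 was called by edgeR, against 0.0381% of all genes, and none by DESeq2, with 2 at an unadjusted p under 0.05 (HSPB1 and DNAJC22, named after their values were seen) and a smallest edgeR adjusted p of 0.548. HSP90AA1 differed by −0.12 (SE 0.11), HSPA8 by −0.01 (SE 0.12), HSPE1 by 0.02 (SE 0.09), HSPB1 by 0.26 (SE 0.10) and DNAJC22 by −0.37 (SE 0.11), on the log2 scale. The libraries of the 2 groups nevertheless did not overlap for HSPB1, higher in Combo, or for DNAJC22, DNAJC16, DNAJC21, HSP90B1 and HSPA12A, lower in Combo. A p that misses the threshold does not show that the 2 treatments act alike on these genes.

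Docetaxel and Adapalene, compared directly, differed in 19 members, with 13 higher in Docetaxel and 6 higher in Adapalene, against 14.1% and 15.6% of all genes (29.7% in either direction). Of the 13, 9 were cytosolic and 3 mitochondrial. DNAJC22 had the largest difference of the 55 (log2 change −1.07, SE 0.10, adjusted p = 6.51e-06 by edgeR), followed by DNAJC4 (log2 change −0.76, SE 0.12, adjusted p = 0.000357 by edgeR). HSP90B1 was lower in Docetaxel (log2 change −0.41, SE 0.07, adjusted p = 0.00102 by edgeR), and HSPE1 was higher (log2 change 0.47, SE 0.08, adjusted p = 0.000637 by edgeR), as were HSPD1 (0.47, SE 0.12) and HSPH1 (0.46, SE 0.12). Leaving out Docetaxel 1, 2 or 3 or Adapalene 1 or 2 left 6, 8, 6, 4 and 5 members higher in Docetaxel. Without the 4 libraries over 2% mitochondrial counts 17 were higher and 8 lower.

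The interaction asks whether the Combo change differs from the sum of the 2 single-drug changes on the log2 scale. No member of 55 was called by edgeR, against 1.44% of all genes, and none by DESeq2, with 5 at an unadjusted p under 0.05 (DNAJB4, DNAJC13, HSPB1, DNAJC25 and HSP90B1, named after their values were seen) and a smallest edgeR adjusted p of 0.126. DNAJB4, which rose with each drug, had an interaction of −0.57 (SE 0.20), HSPB1 one of 0.45 (SE 0.14) and HSP90B1 one of 0.27 (SE 0.11). With no filter HSPB1 passed (0.48, edgeR adjusted p = 0.0114), and DNAJC25 passed without Combo replicate 3 (−0.74, edgeR adjusted p = 0.0453) and without the 4 libraries over 2% mitochondrial counts (−0.78, edgeR adjusted p = 0.0403).

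Other folding genes were read from 5 lists chosen with earlier results of these data known, and their counts stand against 13.2% of all genes higher and 12.8% lower with Docetaxel, 9.25 and 9.16% with Adapalene, and 13.5 and 12.3% with Combo. The chaperonin TRiC and prefoldin, which fold actin and tubulin, had 0 of 13 tested genes called with Docetaxel, 7 lower with Adapalene and 8 lower with Combo, and none higher. CCT5 was at 767 ± 85.2 (SD, n = 3) CPM in Vehicle and fell by 0.47 with Adapalene (SE 0.11, adjusted p = 0.0109 by edgeR) and by 0.51 with Combo (SE 0.11, adjusted p = 0.00502 by edgeR), on the log2 scale. CCT2 fell by 0.47 and 0.48 and CCT6A by 0.39 and 0.44. The call of CCT5 with Adapalene was lost without Vehicle 1 (0.059), and those of CCT2 and CCT6A with Adapalene without Vehicle 1 or Adapalene 1 or 2. CCT2 lost it also without Vehicle 2, and its call with Combo without Vehicle 1 or Combo 3 (highest edgeR adjusted p 0.096 over these calls). Of the cytosolic cochaperones 3 of 28 fell with Docetaxel, 5 with Adapalene and 4 with Combo, and 1 rose with Combo. BAG3, a nucleotide exchange factor of HSP70, fell with all 3, from 195 ± 9.31 (SD, n = 3) CPM in Vehicle to 157 ± 5.43 (SD, n = 4), 142 ± 2.37 (SD, n = 3) and 150.4 ± 15.2 (SD, n = 3) (log2 −0.31, −0.46 and −0.38), and PTGES3 (p23 of HSP90) fell with Adapalene (log2 change −0.40, SE 0.09, adjusted p = 0.00836 by edgeR) and Combo (log2 change −0.37, SE 0.09, adjusted p = 0.00826 by edgeR). The riser was CRYAB, a small heat shock protein at 0.145, 0.213 and 0.496 CPM in Vehicle and 0.747, 1.09 and 1.34 in Combo (log2 change 1.81, SE 0.41, adjusted p = 0.00533 by edgeR). At levels this low the call rests on few counts, and CRYAB shares 626 exon bases with HSPB2 on the opposite strand. Of 4 tested heat shock factors and their binding proteins, HSBP1 fell with Docetaxel (log2 change −0.28, SE 0.10, adjusted p = 0.044 by edgeR) and was lost without Vehicle 2, Vehicle 3, Combo 1 or any Docetaxel library (highest 0.183 by edgeR), and none was called with Adapalene or Combo.

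Of 26 tested genes of the unfolded protein response and ER folding, 6 rose and 8 fell with Docetaxel, 7 rose and none fell with Adapalene, and 7 rose and 1 fell with Combo. Of all genes, 13.2% rose and 12.8% fell with Docetaxel, 9.25 and 9.16% with Adapalene, and 13.5 and 12.3% with Combo. The sensors EIF2AK3 (PERK; log2 differences −0.14, 0.04 and 0.01 with Docetaxel, Adapalene and Combo) and ATF6 (−0.04, −0.07 and −0.14) were not called. Among the risers PPP1R15A, which restores translation after eIF2alpha phosphorylation, was at 111, 93.7 and 90.8 CPM in Vehicle, 411, 448, 354 and 332 in Docetaxel, 169, 139 and 251 in Adapalene and 269, 162 and 350.0 in Combo. It rose with Docetaxel (log2 change 1.97, SE 0.23, adjusted p = 2.86e-05 by edgeR), Adapalene (log2 change 0.92, SE 0.23, adjusted p = 0.0142 by edgeR) and Combo (log2 change 1.41, SE 0.24, adjusted p = 0.000692 by edgeR), and so did DDIT3 (CHOP; 1.23, 0.62 and 0.95) and ERN1 (IRE1; 0.79, 0.60 and 0.77). The fallers with Docetaxel were PDIA4 (log2 change −0.47, SE 0.08, adjusted p = 0.000576 by edgeR), PDIA6 (log2 change −0.35, SE 0.07, adjusted p = 0.00231 by edgeR), EDEM1 (log2 change −0.36, SE 0.10, adjusted p = 0.0164 by edgeR), PDIA3, P4HB, CALR, CRELD2 and SEL1L. The call of EDEM1 was lost without Vehicle 2, Vehicle 3 or Docetaxel 2 (highest 0.074 by edgeR). P4HB, CRELD2 and SYVN1 were higher in Combo than in Docetaxel, by 0.45, 0.51 and 0.61. The interaction passed for PPP1R15A (log2 change −1.49, SE 0.32, adjusted p = 0.0328 by edgeR) and ERN1 (log2 change −0.62, SE 0.13, adjusted p = 0.0344 by edgeR), both below the sum of the single-drug changes. Both were lost without Vehicle 1, Vehicle 2, Docetaxel 1, Docetaxel 2, Adapalene 1 or Combo 1, PPP1R15A also without Vehicle 3 or Adapalene 3, and ERN1 also without Docetaxel 4 or Combo 2 (highest edgeR adjusted p 0.11). The calls of PPP1R15A and DDIT3 with Adapalene were lost without Vehicle 2 or Adapalene 3, and for DDIT3 also without Vehicle 1 or Adapalene 1 (highest 0.055 and 0.094).

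In the mitochondrial list, 1 of 12 tested genes rose and 2 fell with Docetaxel, 1 fell with Adapalene and 2 with Combo. AFG3L2, a protease of the inner membrane, fell with all 3 (295 ± 30.2 (SD, n = 3) CPM in Vehicle, 243 ± 19.8 (SD, n = 4), 237 ± 6.91 (SD, n = 3) and 236 ± 23.8 (SD, n = 3) in Docetaxel, Adapalene and Combo), and each call was lost without Vehicle 1 or Vehicle 2. The same calls were also lost without Docetaxel 1, 2 or 4, without Adapalene 1 or 2, and without Combo 2 or 3, each in its own comparison (highest edgeR adjusted p 0.121, 0.125 and 0.092). GRPEL1, the exchange factor of HSPA9, rose with Docetaxel (log2 change 0.25, SE 0.09, adjusted p = 0.0429 by edgeR) and TRAP1, the mitochondrial HSP90, fell (log2 change −0.29, SE 0.10, adjusted p = 0.0376 by edgeR). The first was lost without any Vehicle library, Docetaxel 1, 2 or 3 or Adapalene 1, the other without Vehicle 1 or 2, Docetaxel 1, 2 or 4 or Combo 1 (highest edgeR adjusted p 0.161 and 0.156).

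**Figure D5:**
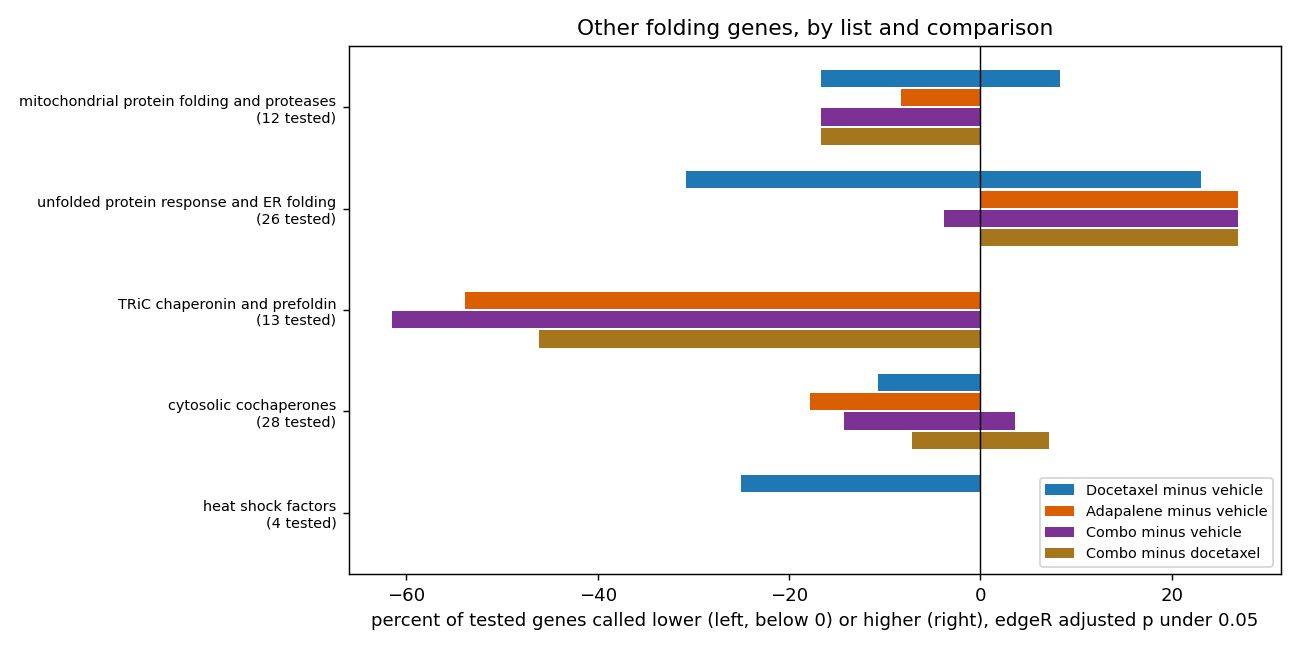
Bars give the percent of tested genes in each list called lower (left of 0) or higher (right of 0) by edgeR in 4 comparisons. TRiC and prefoldin genes are called only lower and only with Adapalene, Combo and Combo against Docetaxel, while the unfolded protein response and ER folding list holds both directions with Docetaxel (6 higher, 8 lower of 26).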

How the data were processed

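Messenger RNA was measured in 13 PC3shTIMP1 libraries, which per the labels' protocols were made from polyadenylated RNA with a strand-preserving kit. The deposited table holds raw counts per Ensembl gene as the authors made them. GRCh38.p13, STAR 2.7.10a, FastQC and DESeq2 are named, without roles, in the submitters' processing notes. Which program counted the reads, with which strand setting, and how reads mapping to several places were handled, is, in the sources used here, not given.

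Testing used edgeR 4.0.16 under R 4.3.3 (TMM scaling, filterByExpr at a minimum count of 10 and total of 15, 1 model with the 4 group means over all 13 libraries, quasi-likelihood test, Benjamini-Hochberg adjustment over 15734 genes, called at an adjusted p under 0.05). The standard error was taken from the log2 fold change and its F statistic. Levels are TMM-scaled CPM, and levels per kilobase use GENCODE release 29 exon lengths. Symbols came from a gene name table (61369 of 67882 identifiers matched), and compartments and gene lists were assigned by hand from general knowledge. Promoter windows came from RefSeq on GRCh38.p14. The test was checked on simulated counts.

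Named genes were 16 always given, the called members with the largest changes (at most 10 in each direction) and up to 3 called genes per direction and list. Others were named beyond that rule after their values were seen. They were DNAJC7, DNAJC21, DNAJB12 and DNAJC11 with Combo and HSPA4 with Combo against Docetaxel. From the lists they were PDIA3, P4HB, CALR, CRELD2 and SEL1L with Docetaxel, CCT6A with Combo, EIF2AK3 and ATF6. Genes not tested, or not called in a comparison, such as DNAJC16, were also named beyond the rule. Members and lists were chosen with earlier results of these data known. Alternatives were another scaling (RLE), no filter, a filter of 1 CPM in 3 libraries, DESeq2 1.42.0, the replicate number as a block, and leaving out each library. Leaving out the 4 libraries over 2% mitochondrial counts was added after seeing the data.

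Replicate numbers come from the labels. Vehicle and Combo libraries of equal number deviated together from their group means (r = 0.257, 0.159 and 0.174), and no other pair of groups passed 0.1 in every number. Adapalene and Combo libraries of equal number gave 0.0202, 0.529 and 0.415. Libraries of unequal number reached 0.341 (Vehicle replicate 3 and Docetaxel replicate 4). These values do not establish that libraries of equal number were paired, so the blocked fit is given only beside the unblocked one.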

Additional observations from a re-analysis of the deposited data

Results flagged for a closer look

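Among the 4 Docetaxel libraries, 1 library stood away from the other 3 by more than Dixon's 95% limit for 4 of 33 named members. These were always given or called in these data. About 1 in 20 independent genes would pass this limit by chance. Genes of 1 library are not independent, and HSP90AA1, HSPA9 and DNAJB9 stood out in the same library, so 4 of 33 cannot be read as an excess. HSP90AA1 was at 2506 CPM in Docetaxel replicate 4, against 2974 to 3046 in the others, and HSPA9 at 643 CPM, against 779.5 to 800.2. DNAJB9 was at 17.5 CPM in the same library, against 12.4 to 12.9. DNAJB11 was at 56.0 CPM in Docetaxel replicate 1, against 50.03 to 50.7 in the others. Mitochondrially encoded transcripts took 2.62% of counts in Docetaxel replicate 4 and 0.722 to 1.72% in the other 3, and the part of this in the gaps was not tested.

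By edgeR's test of the interaction, the effect of Docetaxel differed with and without Adapalene for 227 of 15734 genes, none a heat shock or DNAJ gene. Among the lists of other folding genes, 2 were called. PPP1R15A had an interaction of −1.49 and ERN1 of −0.62, on the log2 scale, and both calls were lost without Vehicle 1, Vehicle 2, Docetaxel 1, Docetaxel 2, Adapalene 1 or Combo 1, PPP1R15A also without Vehicle 3 or Adapalene 3, and ERN1 also without Docetaxel 4 or Combo 2 (highest edgeR adjusted p 0.11).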

How the results depend on the processing

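Single genes were followed through the alternatives only in comparisons where the naming rule chose them or a member was called in the full fit. Among these results, none called in the full fit or in the alternative changed direction. Where neither fit called a gene, direction was not compared. Leaving out each library in turn gave these ranges of members called: with Docetaxel 1 to 5 higher and 3 to 6 lower (3 and 4 in full), with Adapalene 2 to 7 higher and 4 to 13 lower (6 and 10), with Combo 5 to 9 higher and 6 to 16 lower (6 and 15), in Combo against Docetaxel 6 to 7 higher and 3 to 14 lower (7 and 12), in Docetaxel against Adapalene 4 to 16 higher and 5 to 7 lower (13 and 6), in Combo against Adapalene 0 to 0 in both directions, and in the interaction 0 to 0 higher and 0 to 1 lower (0 and 0). Without the 4 libraries over 2% mitochondrial counts, 7 members fell with Docetaxel and 1 (DNAJC25) passed the interaction test, lower; with no filter on low counts 1 (HSPB1) passed it, higher. The cause was not tested. Blocked by replicate number, the counts were 3 higher and 6 lower with Docetaxel, 7 and 11 with Adapalene, 6 and 16 with Combo, and 7 and 13 in Combo against Docetaxel, and HSPA5 alone of the named members changed its call with Combo. Over the single-gene results followed in this way, RLE scaling changed no call, DESeq2 lost none and added 3, and the block lost 9 and added 4. With no filter 15 were lost and 5 added, and the filter of 1 CPM in 3 libraries lost 2 and added none. The fit without the 4 libraries over 2% mitochondrial counts lost 5 and added 8. Leaving out single libraries lost 299 of the gene-by-library results and added 11, with 2420 the same. Calls gained outside these results are not in these counts, among them HSPB7 with Docetaxel by DESeq2 and DNAJC1 with Combo by the 1 CPM filter. With 3 or 4 technical replicates a group, log2 differences near 0.3 lay close to the threshold, and genes under about 10 counts, such as HSPB7, could not be tested in the filtered fit of all libraries.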
